A study of Mus musculus with 35 samples.

Results

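Gene expression at passage 10 (p10) was set against that at passage 7 (p7) in MOSE cells, a line of surface epithelial cells taken from the ovaries of adult virgin C57BL/6 female mice and grown in serial culture in DMEM with fetal bovine serum. The comparison was chosen by the sample titles alone and holds 7 of the 35 RNA arrays of a culture series with 9 passages, of which 4 arrays were of p10 and 3 of p7. Neither passage carried an engineered allele or received an agent, and by the labels the passages differ only in their time in culture. Each passage was a single RNA preparation, taken from a culture outside its ovary, and its arrays were repeat hybridizations of that preparation. The arrays of a passage are therefore technical replicates, and every p-value below covers the error of hybridization and not the spread between cultures. Every array carried MOSE RNA against a common reference of whole newborn male C57BL/6 mouse RNA, with MOSE RNA in Cy5 on the direct arrays (d1 and d2) and in Cy3 on the reverse arrays (r1 and r2). At p10 there were 2 direct and 2 reverse arrays, and at p7 2 direct arrays and 1 reverse array. The measured value is log2(MOSE/reference), turned so that a positive value means more signal from MOSE RNA on both kinds of array, and a positive difference means a higher ratio at p10.

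The ovarian surface epithelium is the single cell layer that covers the ovary, related by origin to the mesothelium of the body cavity. It expresses keratins together with mesenchymal proteins, and it lays down and remodels a matrix of fibronectin, collagens and proteoglycans when follicles rupture and heal. Iron handling and metal binding in such cells rest on a transferrin receptor that brings iron in, ferritin that stores it, ferroportin that exports it and metallothioneins that bind zinc and copper.

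Markers of the surface epithelium gave signal at both passages. All 18 clones of 13 such genes lay above background on all 7 arrays, as did all 8 clones of granulosa and steroidogenic markers. On each array 99.2% to 99.5% of clones were above background in both channels, so this count does not identify the cells. The mean log2 ratio of the surface epithelium genes was 1.67 to 1.86 on the p10 arrays and 1.72 to 1.88 on the p7 arrays. The median MOSE signal of an array was 981 to 1720 at p10 and 1120 to 1960 at p7. The ratios of pairs of arrays correlated at 0.66 to 0.76 within p10, at 0.68 to 0.79 within p7 and at 0.61 to 0.74 between the passages. With the dye means removed, the correlations within a passage were 0.68 to 0.81 at p10 and 0.75 to 0.80 at p7.

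Few clones separated the passages. With limma and a term for the dye orientation, 11 of 15254 clones (0.0721%) passed an adjusted p of 0.01, 6 of them higher and 5 lower at p10. At the wider threshold of 0.05, 92 clones (0.603%) passed, 40 higher and 52 lower, and 76 of these carried the symbols of 65 genes. Counted by gene, 32 of 7389 genes had a clone higher at p10 at 0.05 (0.433%) and 33 had a clone lower (0.447%). At an unadjusted p of 0.05 there were 1889 clones. Clones past 0.01 are described below as having risen or fallen, and clones between 0.01 and 0.05 are given by their values. Leaving out 1 array brought the clones past 0.01 to between 0 and 4, and of the named clones only Neat1 and Fn1 stayed past it in any of these fits.

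The 6 clones that rose were of Fn1, Bgn, Cldn3, Cd34, Crip1 and Slc38a1. Fn1, which encodes fibronectin, the adhesive glycoprotein of the extracellular matrix, had the largest difference of these. The Fn1 clone read -0.28, -0.58, 0.02 and 0.20 on the p10 arrays, against -5.22, -4.69 and -2.97 on the p7 arrays. The difference was 3.95 ± 0.31 on the log2 scale (SE), a 15.4-fold higher ratio at p10 with an adjusted p of 0.0080. No p10 array came near any p7 array, and the p7 reverse array was the highest of its passage. In the MOSE channel the log2 signal of this clone differed by 3.74 and in the reference channel by -0.21.

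Bgn encodes biglycan, a small proteoglycan that binds collagen. Its clone read 1.01, 0.73, 1.58 and 1.35 at p10, against -0.61, -0.82 and 0.03 at p7, and rose by 1.52 ± 0.13 (SE, adjusted p 0.0082), or 2.87-fold. On both sides the reverse arrays read highest, and the passages did not overlap. Between 0.01 and 0.05 lay clones of Tnc, which encodes the adhesion-modulating matrix protein tenascin C, and of Fbln2, which encodes the elastic fiber protein fibulin 2. The Tnc clone read -1.53, -1.51, -0.91 and -1.16 at p10, against -3.26, -3.14 and -2.25 at p7, a log2 difference of 1.49. The Fbln2 clone had a difference of 1.18.

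Col4a1 and Col4a2, which encode the chains of the main basement membrane collagen, had the opposite sign. The Col4a2 clone read -1.28, -1.40, -0.76 and -0.92 at p10, against -0.37, -0.19 and 0.53 at p7, a log2 difference of -1.18 with an adjusted p of 0.013. Of this difference -0.38 stood in the MOSE channel and 0.80 in the reference channel. The Col4a1 clones had differences of -1.13 and -0.83, with -0.69 in the MOSE channel and 0.43 in the reference channel for the first. Over the 34 measured genes of the list of collagens and matrix proteins, 4 had a clone higher at 0.05 (Fn1, Bgn, Tnc and Fbln2) and 2 had one lower. The shares over all genes were 0.433% higher and 0.447% lower. The median over the list was 0.19, beside 0.01 over all genes, and by channel it was 0.07 for MOSE and -0.09 for the reference.

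Enzymes and growth factors that act in the matrix added a few more. Tgm2, which encodes a transglutaminase that crosslinks matrix proteins, differed by 1.32 and was the only one of 9 measured genes of matrix assembly past 0.05. Mmp2, which encodes a gelatinase, read -0.37, -0.56, -0.20 and -0.15 at p10, against -2.41, -2.29 and -1.37 at p7, a log2 difference of 1.61 (adjusted p 0.013). It was the only one of 17 secreted proteases and inhibitors past 0.05. Igfbp3, the main carrier of insulin-like growth factors in serum, read 0.82, 0.99, 1.0 and 0.79 at p10, against -1.16, -0.94 and -0.37 at p7. Its log2 difference of 1.68 was carried by the MOSE channel, at 2.00, and Igf1, the growth factor itself, differed by 0.92. Of the 11 measured genes of the IGF axis, these 2 passed 0.05 higher and none passed lower, with a list median of 0.40. The lowest value, -0.90, was that of Igf2, the mean of clones that differed by -2.12 and 0.31. By channel the IGF list had medians of 0.07 in the MOSE channel and -0.09 in the reference channel. The shares over all 7389 genes, 0.433% higher and 0.447% lower at 0.05, stand beside these list counts and those below. Gpc3, a cell surface heparan sulfate proteoglycan that restrains growth, differed by 1.68, with 1.10 in the MOSE channel.

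**Figure D1:**
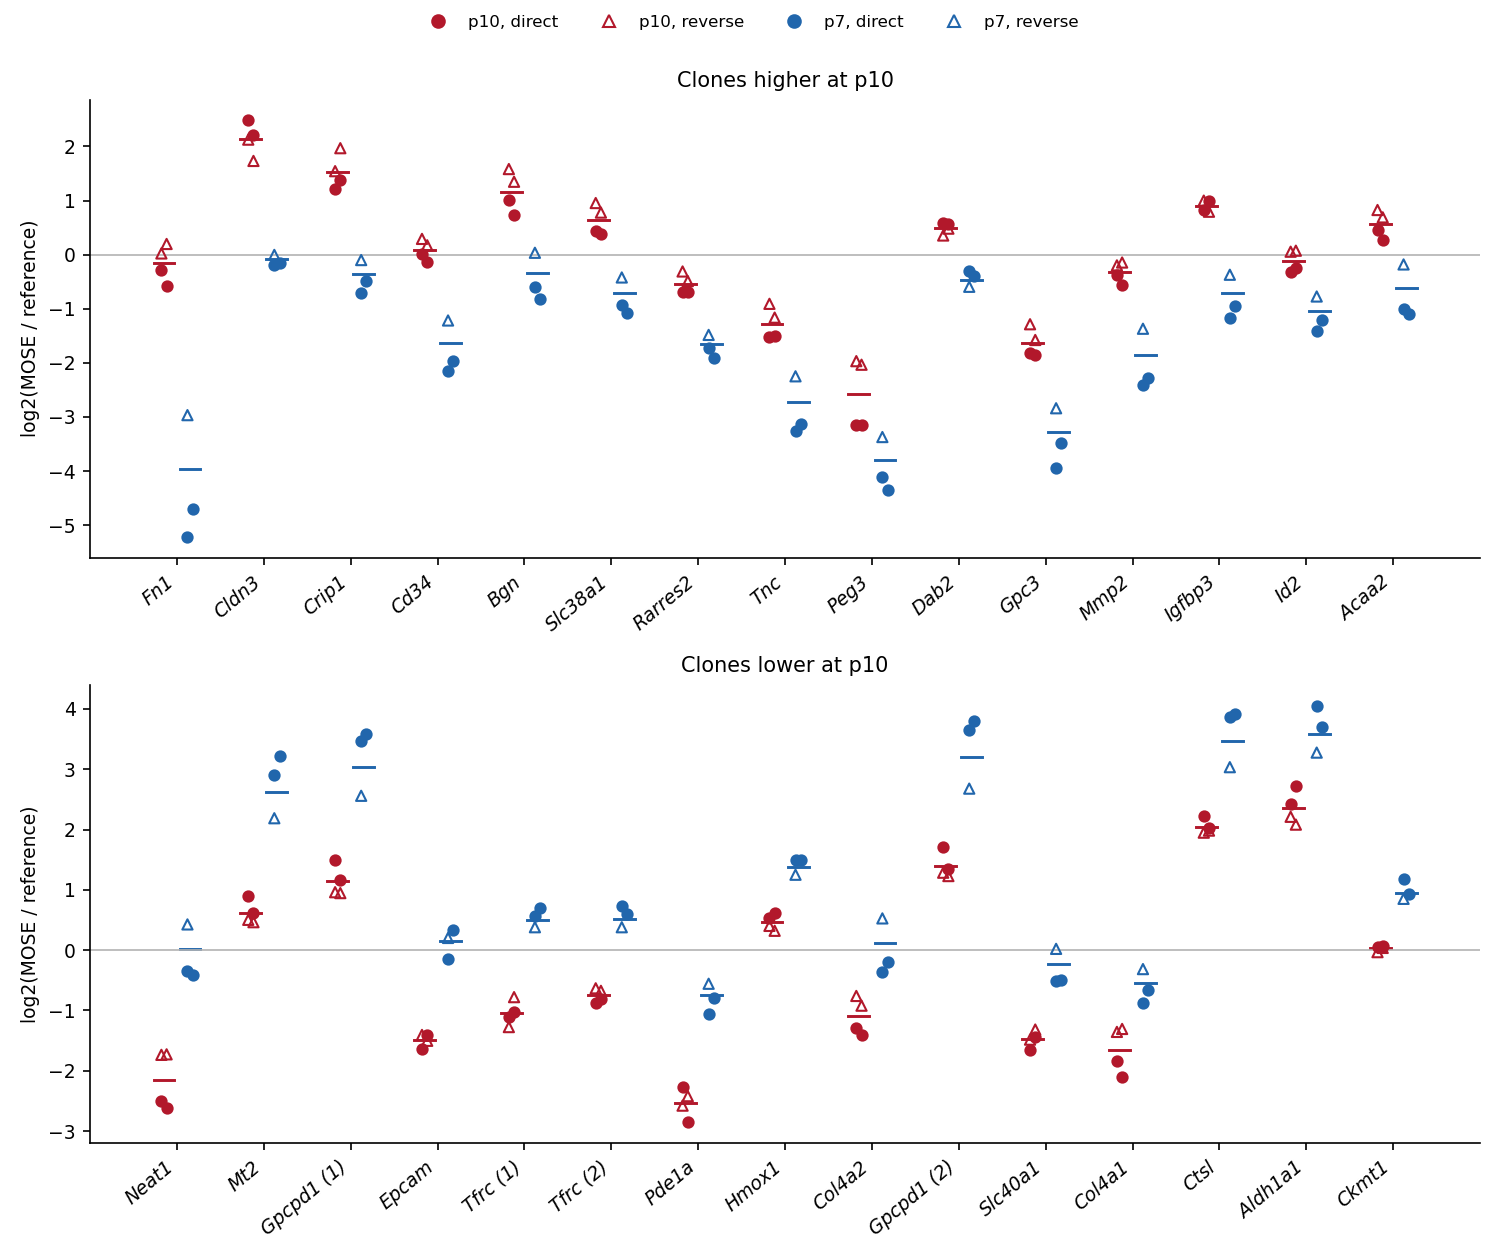
Log2(MOSE/reference) of the named clones on each p10 array (red) and each p7 array (blue), with circles for direct arrays, triangles for reverse arrays and bars for the mean of the dye orientation means. The p10 and p7 arrays of every clone drawn lie apart, which for clones past 0.01 was a condition of being named. Fn1 shows the widest gap, with p10 between -0.58 and 0.20 and p7 between -5.22 and -2.97.

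Of the genes of cell junctions, Cldn3 rose, and Epcam lay just outside the threshold with the opposite sign. Cldn3, which encodes claudin 3 of the tight junction, read 2.48, 2.21, 2.13 and 1.73 at p10, against -0.19, -0.15 and -0.01 at p7. It rose by 2.28 ± 0.17 (SE, adjusted p 0.0080), or 4.86-fold, with 2.18 in the MOSE channel. Every p10 array read at least 1.73 and every p7 array below 0. Epcam, which encodes an epithelial adhesion molecule, read -1.63, -1.40, -1.41 and -1.50 at p10, against -0.15, 0.33 and 0.20 at p7. Its difference of -1.63 had an adjusted p of 0.0103, just outside the threshold of 0.01. Cldn3 and Epcam were the only genes past 0.05 among the 30 measured genes of junctions and intermediate filaments, whose median was 0.03. The Cdh1 clones, for E-cadherin, differed by -0.15 and -0.08, and the Tjp1 clone, for the junction scaffold ZO-1, by 0.14.

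Among the 13 genes used as markers of the surface epithelium, Msln and Aldh1a1 lay past 0.05 with opposite signs. Msln, which encodes the mesothelial surface protein mesothelin, read 2.67, 2.33, 2.19 and 2.16 at p10, against 0.61, 0.36 and 1.24 at p7, a log2 difference of 1.59. Aldh1a1, which encodes a retinaldehyde dehydrogenase, read 2.42, 2.73, 2.21 and 2.08 at p10, against 4.06, 3.70 and 3.28 at p7, a log2 difference of -1.23, of which -0.64 stood in the MOSE channel and 0.59 in the reference channel. Wt1, Gata4 and Bnc1, transcription factor genes of this epithelium, differed by -0.07, -0.28 and 0.08. Tcf21, a transcription factor gene of mesothelial and stromal lineages, was not on that list and differed by 1.59.

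Cd34, which encodes a sialomucin known from blood progenitors, endothelium and some fibroblasts, read 0.01, -0.13, 0.29 and 0.17 at p10, against -2.14, -1.96 and -1.22 at p7. It rose by 1.78 ± 0.14 (SE, adjusted p 0.0080), or 3.42-fold. The other measured endothelial markers, Cdh5 and Pecam1, had differences of 0.09 and 0.39 with adjusted p-values of 0.920 and 0.643. The endothelial list holds Cd34 itself beside Cdh5 and Pecam1. Its mean ratio was -1.41 to -1.10 on the p10 arrays and -2.09 to -1.79 on the p7 arrays. That of the fibroblast and stroma list was -1.47 to -1.16 at p10 and -2.09 to -1.57 at p7. None of the 7 measured genes of the fibroblast and stroma list passed 0.05, 5 had positive differences and 2 negative ones, and the values ran from -0.26 in Dcn to 1.0 in Col1a1. In RNA from a whole culture a change in the number of cells of a type and a change in RNA per cell cannot be told apart, and the part of stromal cells in these results was not tested.

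Crip1, which encodes a small LIM domain protein, read 1.22, 1.38, 1.54 and 1.97 at p10, against -0.71, -0.50 and -0.10 at p7. It rose by 1.88 ± 0.13 (SE, adjusted p 0.0080), or 3.69-fold. All p10 arrays were above 1 and all p7 arrays below 0. Slc38a1, which encodes a sodium-coupled transporter of glutamine and other neutral amino acids, read 0.43, 0.38, 0.95 and 0.78 on its called clone at p10, against -0.93, -1.08 and -0.42 at p7. This clone rose by 1.36 ± 0.10 (SE, adjusted p 0.0080), or 2.57-fold, while the second Slc38a1 clone differed by 0.50 with an adjusted p of 0.107. The clones of this gene thus had the same sign and different sizes. Between repeat arrays of passage 18 the called Slc38a1 clone differed by 0.79 and the Crip1 clone by -0.62. Between those of passage 25 the same clones differed by -0.73 and -0.83.

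Several regulators lay between 0.01 and 0.05 with positive differences. Id2, an inhibitor of helix-loop-helix transcription factors that BMP signaling induces, differed by 0.95 and 1.09 on its clones. It was the only one of 22 measured genes of TGF-beta, activin and BMP signaling past 0.05, while Id1 and Id3, its relatives, differed by 0.70 and 0.69 with adjusted p-values of 0.220 and 0.180. Peg3, an imprinted zinc finger gene expressed from the paternal allele, differed by 1.20 and 0.60. The first Peg3 clone also differed by 0.98 between repeat arrays of passage 25 and by 0.37 between those of passage 18. For the second Peg3 clone the unadjusted arrays of the passages overlapped, and they lay apart only after the dye means were removed. Rarres2, which encodes the chemoattractant chemerin, differed by 1.11, and Dab2, an endocytic adaptor gene, by 0.97. The mitochondrial thiolase gene Acaa2, of fatty acid oxidation, differed by 1.22. Idi1 and Fdft1, enzymes on the route to cholesterol, differed by 0.73 and 0.84. They were the 2 of 15 measured genes of cholesterol synthesis and uptake past 0.05, 14 of which had positive differences, and the list median was 0.30. At 0.05 the shares over all genes were 0.433% higher and 0.447% lower. C3, the central complement component, differed by 1.68, but its clone also differed by 3.40 between repeat arrays of passage 18 (p18).

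The clones that fell included the smallest adjusted p-value of the comparison, that of Neat1. Neat1 is a long noncoding RNA that forms the core of nuclear paraspeckles. Its clone read -2.50, -2.62, -1.74 and -1.73 at p10, against -0.34, -0.41 and 0.43 at p7. The difference was -2.18 ± 0.09 (SE, adjusted p 0.00076), a 4.52-fold lower ratio at p10. On both sides the reverse arrays read about 0.8 above the direct arrays, and the passages stayed more than 1 log2 unit apart. Nearly all of the difference, -2.17, stood in the MOSE channel, and the reference channel differed by 0.01.

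Most other measured genes of splicing and paraspeckles had smaller negative differences. Srsf5, a splicing factor gene, differed by -0.68, and with Neat1 it was the only gene past 0.05 among 45 measured genes of splicing and paraspeckles. Of these 45 genes 37 had negative differences, with a median of -0.17 beside 0.01 over all genes. Sfpq, which encodes a paraspeckle protein, had 6 clones with differences between -0.75 and -0.32, none past 0.05. The Malat1 clones, of the long noncoding RNA of nuclear speckles, differed by -0.24, -0.31 and -0.71, with adjusted p-values of 0.528 to 0.799.

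Gpcpd1, which encodes an enzyme that cleaves glycerophosphocholine, was measured by 3 clones. The called clone read 1.49, 1.16, 0.96 and 0.95 at p10, against 3.47, 3.58 and 2.56 at p7. It fell by 1.96 on the log2 scale (SE 0.16, adjusted p 0.0080), a 3.89-fold lower ratio, and the MOSE channel carried -2.21. The other clones differed by -1.89 and -1.55, with adjusted p-values of 0.0129 and 0.0195, so all clones of the gene read lower at p10 by a similar amount.

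Metal binding and iron genes gave the largest group on the lower side. Of the 36 measured genes of antioxidant, glutathione and iron metabolism, 6 had a clone lower at 0.05 (Mt2, Slc40a1, Txnrd1, Hmox1, Tfrc and Ftl1) and none had one higher. Over all 7389 genes 0.447% had a clone lower and 0.433% had one higher. The list median was -0.14, beside 0.01 over all genes, and 25 of the 36 differences were negative. Mt2, which encodes a metallothionein, read 0.90, 0.62, 0.50 and 0.46 at p10, against 2.90, 3.23 and 2.19 at p7. It fell by 2.06 on the log2 scale (SE 0.17, adjusted p 0.0080), a 4.18-fold lower ratio. The MOSE channel differed by -0.79 and the reference channel by 1.27, so the larger share of the change in ratio stood in the signal of the newborn reference RNA. Mt1, the neighboring metallothionein gene, read 1.39, 1.49, 0.98 and 0.93 at p10, against 3.39, 4.08 and 1.96 at p7, a difference of -1.78 (adjusted p 0.064) with -0.31 in the MOSE channel and 1.47 in the reference channel.

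The upstream regions of the metallothionein genes are shown because these genes are textbook targets of the metal-sensing factor MTF1, whose metal response element has the core TGCACNC or TGCGCNC. Both windows run from 250 bases before to 50 bases after the gene start of RefSeq on mouse build GRCm38.p6, plus strand, at chr8:94178839-94179138 for Mt1 and chr8:94172368-94172667 for Mt2. Capitals mark every match to either core on either strand, with none overlapping another.
Mt1: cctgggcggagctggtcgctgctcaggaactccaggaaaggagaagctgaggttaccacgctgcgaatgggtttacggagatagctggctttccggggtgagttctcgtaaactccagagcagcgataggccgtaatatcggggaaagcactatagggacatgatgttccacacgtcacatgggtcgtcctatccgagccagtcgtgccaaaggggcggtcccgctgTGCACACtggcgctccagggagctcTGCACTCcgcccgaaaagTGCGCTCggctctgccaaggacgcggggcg
Mt2: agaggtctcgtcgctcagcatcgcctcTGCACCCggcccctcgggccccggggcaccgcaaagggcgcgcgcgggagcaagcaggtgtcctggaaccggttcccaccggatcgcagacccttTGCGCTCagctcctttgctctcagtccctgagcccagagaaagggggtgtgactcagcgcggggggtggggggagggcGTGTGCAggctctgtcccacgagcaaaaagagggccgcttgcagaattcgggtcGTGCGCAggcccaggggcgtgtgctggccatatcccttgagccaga
The Mt1 window held 3 matches, all on the plus strand, and the Mt2 window held 4, 2 on each strand. Among 32851 promoter windows of the same length, 25.7% held at least 1 match, 1.97% at least 3 and 0.517% at least 4. A match is a stretch of letters and not a measured site of binding.

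The iron genes differed mainly in the MOSE channel. Tfrc, the transferrin receptor gene, read -1.11, -1.02, -1.28 and -0.78 on its clone with the lowest p at p10, against 0.57, 0.70 and 0.38 at p7. The log2 difference was -1.58 with -1.42 in the MOSE channel, and a second Tfrc clone differed by -1.32. The third Tfrc clone did not follow them, with 0.23 and an adjusted p of 0.559. Ftl1, which encodes the ferritin light chain, had 3 of 4 clones past 0.05, with differences of -0.76, -0.86 and -0.91, while Fth1, for the heavy chain, differed by -0.03. These Ftl1 clones also differed by -0.35, -0.96 and -1.58 between repeat arrays of p18, and by -0.18, 0.22 and -0.13 between those of passage 25. Slc40a1, the gene of the iron exporter ferroportin, read -1.66, -1.44, -1.48 and -1.32 at p10, against -0.50, -0.49 and 0.02 at p7, a difference of -1.20. Hmox1, which encodes the heme-degrading oxygenase 1, read 0.53, 0.62, 0.40 and 0.32 at p10, against 1.50, 1.50 and 1.25 at p7, a difference of -0.91. The redox genes Txnrd1, for thioredoxin reductase 1, and Ptgr1, for prostaglandin reductase 1, differed by -1.07 and -0.94. For each of these clones past 0.05 the p10 arrays lay below all p7 arrays. This is not particular to them, since all 92 clones past 0.05 lay apart once the dye means were removed.

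Metabolic and lysosomal enzymes were also among the lower clones. Ctsl, which encodes the lysosomal protease cathepsin L, read 2.23, 2.03, 1.95 and 1.98 at p10, against 3.86, 3.92 and 3.03 at p7, a log2 difference of -1.49, and its other clone differed by -1.68. Between repeat arrays of p18 the first clone differed by -0.10 and the other by -1.08. Ctsl was the only one of 31 measured lysosomal genes past 0.05, with a list median of -0.08. Eno1, which encodes the glycolytic enzyme enolase 1, had clones with differences of -0.89 and -1.02 past 0.05 and was the only one of 18 glycolysis genes there. Ckmt1, a mitochondrial creatine kinase gene, differed by -0.94.

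Several lists of growth and energy genes held no gene past 0.05. None of 53 measured genes of G2/M and mitosis, 38 of S phase and DNA replication, 80 cytosolic ribosomal proteins, 60 subunits of oxidative phosphorylation or 17 p53 targets passed 0.05 in either direction. Their medians were 0.12, 0.11, 0.10, 0.07 and 0.04. Single members lay far from these medians, as Plk1 did at 4.92, Prim2 at -5.38 and Uqcrfs1 at 4.15. Their adjusted p-values were 0.572, 0.481 and 0.236. None of 20 genes of endoplasmic reticulum chaperones and stress passed 0.05, and their median was -0.05. Over all 7389 genes only 0.433% had a clone higher and 0.447% had one lower. Lists of these sizes can therefore hold no such gene without differing from the rest.

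**Figure D2:**
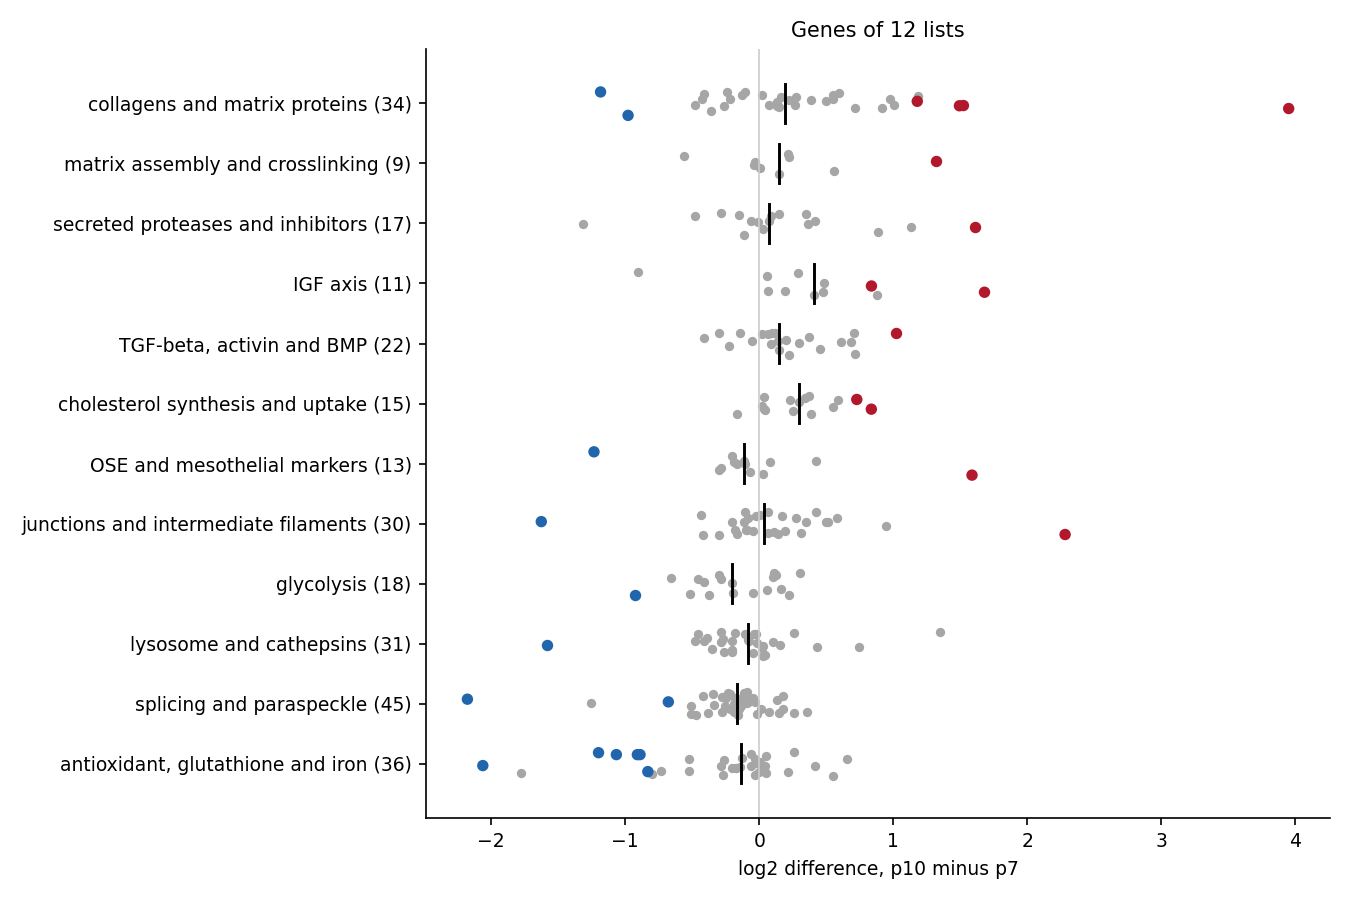
Log2 difference of p10 minus p7 for each measured gene (points) of 12 gene lists, with the number measured in brackets, the list median as a bar, and genes with a clone past an adjusted p of 0.05 in red (higher) or blue (lower). The marked genes are few in every list, with the most in the antioxidant and iron list (6 lower) and the matrix list (4 higher and 2 lower).

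Because every array held the same reference RNA, the signal of each channel was also set out on its own. Over the 40 clones higher at 0.05 the MOSE channel had a median difference of 1.05 and the reference channel of -0.16, and the MOSE part was the larger in 39. Over the 52 lower clones the medians were -0.75 in the MOSE channel and 0.20 in the reference channel, and the MOSE part was the larger in 39. The other 14 clones, 13 of them lower, had the larger part in the reference channel. Those with a symbol were of Mt2, Pde1a, Col4a2, Grk5, Jade1, Tor1aip2 and Sccpdh with 1 clone each and of Hbb-y with 3.

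For Pde1a, which encodes a calmodulin-dependent phosphodiesterase, the ratio differed by -1.76 while the MOSE channel differed by 0.14 and the reference channel by 1.90. Its second clone had a ratio difference of 0.34. For Hbb-y, an embryonic globin gene of red blood cells, the reference channel differed by 0.74 to 1.24 and the MOSE channel by -0.50 to -0.13 on the clones past 0.05. The whole list of 7 erythroid genes had a median of -0.83, with 6 negative, and a median of 0.59 in the reference channel. The mean ratio of its clones was -3.95 to -3.60 on the p10 arrays and -3.28 to -2.83 on the p7 arrays. No clone passed 0.01 in the reference channel alone, 1 passed 0.05 and 872 passed an unadjusted p of 0.05. In the MOSE channel alone, a setting chosen after seeing the data, 4 clones passed 0.01, and 1 of them was among the 11.

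**Figure D3:**
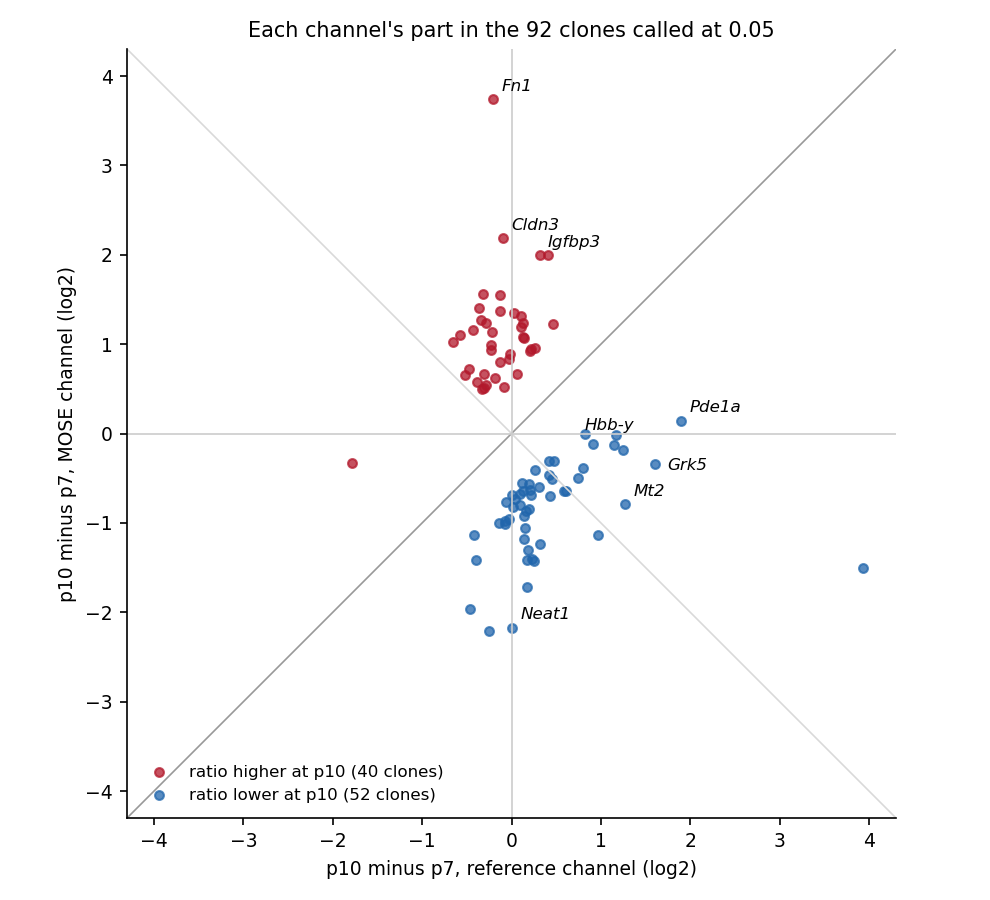
Difference of p10 minus p7 in the log2 signal of the MOSE channel against that of the reference channel, for the 92 clones at an adjusted p under 0.05. Most clones spread along the MOSE axis, as Fn1 (3.74 and -0.21) and Neat1 (-2.17 and 0.01) do, while Pde1a (0.14 and 1.90) and Mt2 (-0.79 and 1.27) lie far along the reference axis.

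The array names showed that the p10 and p7 arrays belonged to different naming series, and no array of either passage was in the series of the other. The passage and the series cannot be told apart within these 7 arrays. Other passages offered a partial view, since p18 and passage 25 (p25) each had repeat arrays of the same orientation in different series. Between the repeats of p18, 1 of which was in the series of the p10 arrays, the 40 higher clones differed by a median of 0.12 and the 52 lower clones by -0.02. Between the repeats of p25, r2 in the series of the p10 arrays and r1 in that of the p7 arrays, these medians were -0.08 and -0.09. The same clones had medians of 1.18 and -1.04 between p10 and p7. They were chosen by that difference, so this contrast does not test the naming series. Single clones were less even, as the Neat1 clone differed by -0.95 and the Cldn3 clone by -0.90 between the repeats of p18, and by 0.05 and -0.05 between those of p25. In a fit over all 35 arrays that took the naming series as a block, 92 of the 92 clones kept their sign and 7 of them stayed under 0.05. That fit includes the arrays by which the clones were chosen.

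**Figure D4:**
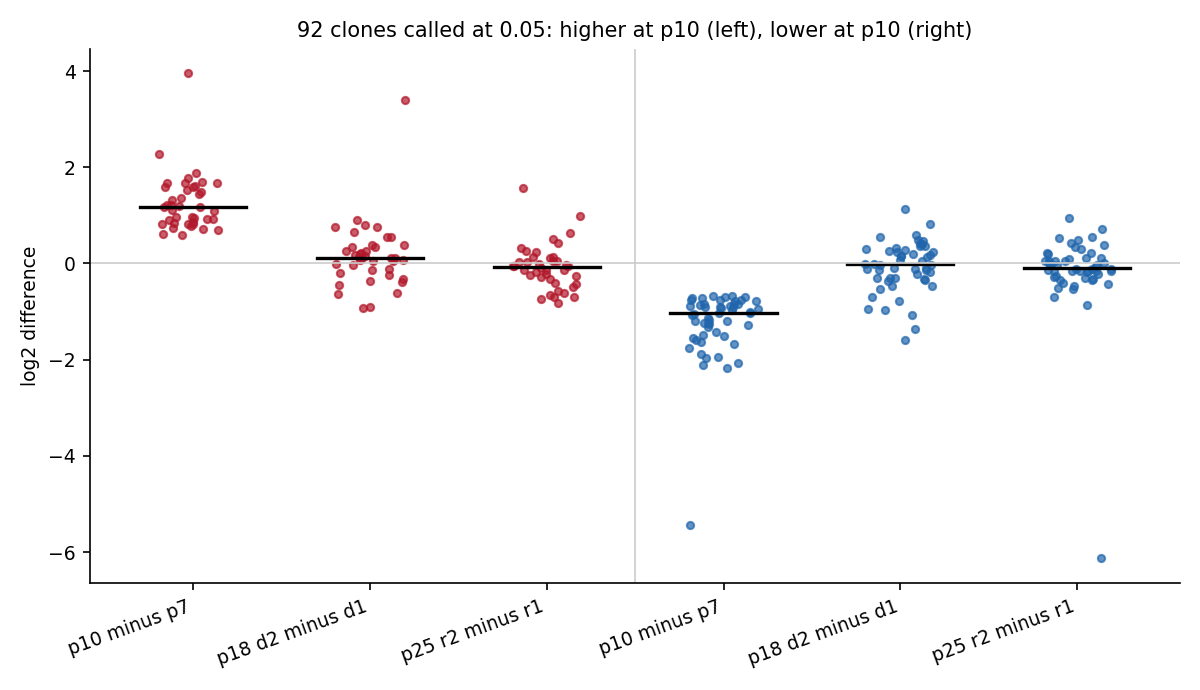
Log2 differences of the clones higher and lower at an adjusted p under 0.05, between p10 and p7 and between repeat arrays of p18 and of p25 that lay in different naming series. The repeat arrays have medians between -0.09 and 0.12, against 1.18 and -1.04 for p10 minus p7, the difference by which the clones were chosen.

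Set against all 9 passages, the clones stood apart more at p7 than at p10. For the 40 higher clones the median log2 ratio was -0.39 at p2 and p5, then -0.83 at p7, 0.13 at p10 and 0.25 at p14, and it lay between -0.11 and 0.05 from p18 to p28. For the 52 lower clones it was 0.51 at p2 and 0.52 at p5, then 0.95 at p7, -0.02 at p10 and 0.15 at p14, and it lay between -0.05 and 0.27 from p18 to p28. Of the 40 higher clones 10 had their highest mean at p10 and 22 their lowest at p7, and of the 52 lower clones 19 had their lowest mean at p10 and 28 their highest at p7. The clones were chosen by these very passages, so these counts are a description.

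The single genes differed in how long their levels lasted. Fn1 averaged -2.82 at p2 and -2.29 at p5, then -3.96 at p7, -0.16 at p10 and 1.49 at p14, and stayed between -0.77 and 1.43 thereafter. Epcam averaged -0.86 at p2 and -0.22 at p5, then 0.15 at p7 and -1.49 at p10, and lay between -1.45 and -1.06 at every later passage. Tfrc, on its clone with the lowest p, averaged -0.60 at p2 and -0.05 at p5, then 0.51 at p7 and -1.05 at p10, and lay between 0.45 and 0.72 from p14 on. Neat1 averaged 0.76 at p2 and -1.04 at p5, then 0.03 at p7, -2.15 at p10 and -1.70 at p14, and lay between -0.71 and -0.45 at later passages. The low p10 level of this Tfrc clone was thus not read at later passages, while the lower level of Epcam and the higher level of Fn1 were also read later.

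**Figure D5:**
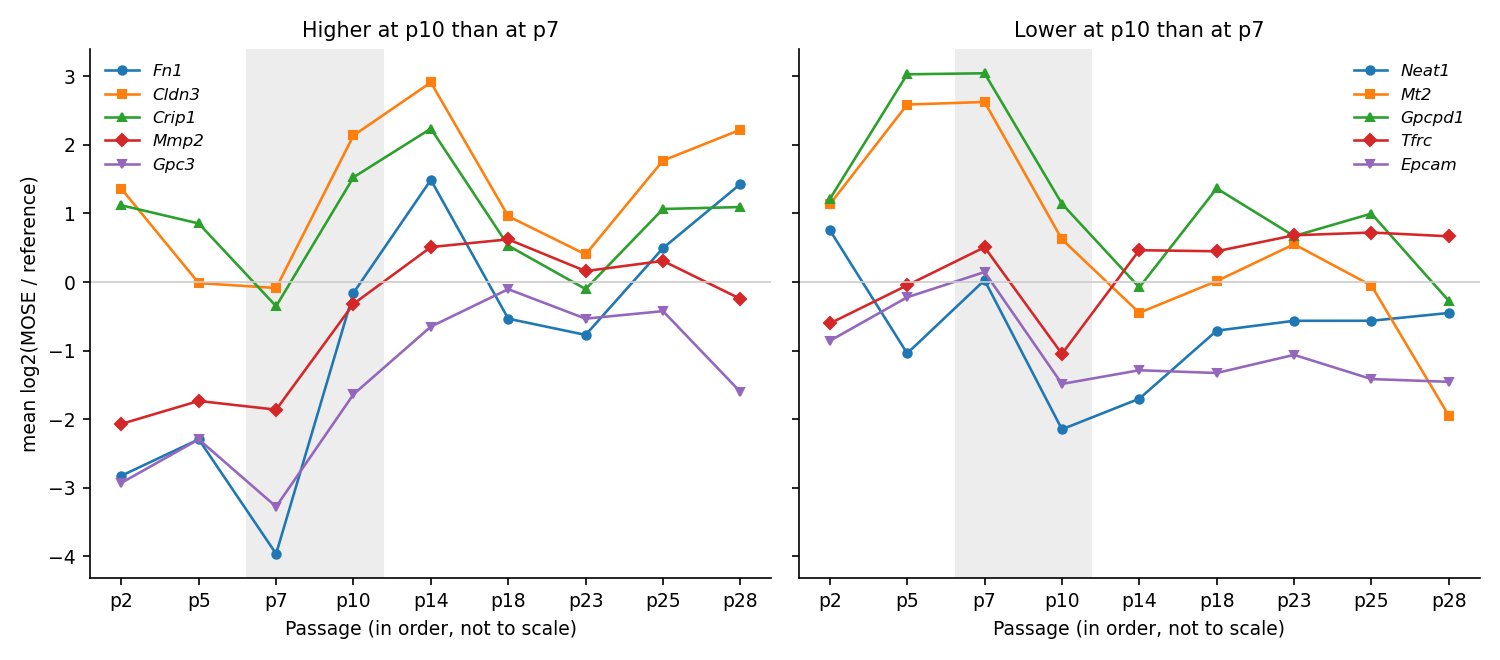
Mean log2(MOSE/reference) of 5 named clones higher and 5 lower at p10 than at p7, over the 9 passages from p2 to p28, with p7 and p10 shaded. Fn1 and Mmp2 are far lower at p2 to p7 than from p10 on, while Tfrc is at -0.60 at p2, -1.05 at p10 and 0.46 at p14.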

How the data were processed

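MOSE RNA and newborn reference RNA were hybridized to 2-colour NIA 15K cDNA arrays. The authors scanned the arrays and deposited the intensity and local background of both channels for each spot, with no transformation. The authors also deposited a table of log2 ratios, made by print-tip loess and scaling, which served as an alternative. Its lines carry no clone names, and 14719 of 15023 were matched to clones by order and a Spearman correlation over 0.7, which left the Slc38a1 clone unmatched. The direction of the ratios was taken from the dye labels. The table correlated with the scanner ratios of the 7 arrays at 0.972 to 0.999, a likeness that the matching itself favours.

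In R 4.3.3 with limma 3.58.1, local background was subtracted with a floor of 0.5, loess was run by print-tip (32 blocks) and the 35 arrays were scaled. The 7 arrays were fitted on passage and dye orientation (4 residual and 3.01 prior degrees of freedom), with Benjamini-Hochberg adjustment over 15254 clones. Channel values came from quantile-normalized mean log2 signals, so that their difference equals the log2 ratio. Symbols were updated with Python 3.11.15, and clones of a gene were averaged for the lists. The fit was tested on simulated data. Per direction 15 clones were named. Those past 0.01 whose p10 and p7 arrays did not overlap with the dye means removed came first, then those of lowest p. The called genes and extremes of each list were also named, and the few other genes were named after their values were seen. Members and lists were chosen with earlier results of these data known.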

Additional observations from a re-analysis of the deposited data

Results flagged for a closer look

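One p10 array stood apart from the other 3 for a single named clone. After the dye means were removed, the Gpc3 clone read -1.87 on the reverse array r2 of p10, against -1.58 on the nearest of the other p10 arrays, and this gap was 0.838 of the range of the group, beyond Dixon's critical value for 4 arrays. Gpc3 encodes the heparan sulfate proteoglycan glypican 3, and its p10 array with the lowest value still lay above all p7 arrays. With 30 named clones checked, a mark of this kind can come from hybridization error alone, and its cause was not tested.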

How the results depend on the processing

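The count of clones past an adjusted p of 0.01 moved with the processing. At least 90 of the 92 clones at 0.05 kept their sign under each of 19 alternatives that measured them. These alternatives reuse the arrays by which the clones were chosen, so the kept signs are not independent support. From 11 clones the count went to 92 at a threshold of 0.05, 73 over clones found above background on all 7 arrays, 61 in the authors' table, 46 with all 35 arrays in the fit, 46 with normexp background, 36 with no scaling, 21 with the naming series as a block, 12 with scaling within each passage, 4 in the MOSE channel alone (added after seeing the data) and 2 with global loess. With no dye term 0 passed, with 43 at an adjusted p of 0.05 and 1148 at an unadjusted p of 0.05. With the replicate name as a block 0 passed, and 1486 at an unadjusted p of 0.05. Deviations of same-named arrays from the fit correlated at -0.14, -0.09 and -0.48. The fit ties these deviations to each other, so the correlations cannot show whether the names pair arrays. The replicate block changed no call beyond these 11. Without 1 array the count ran from 0 to 4, with 0 without d1, d2 or r1 of p10 or d2 of p7, 1 without r2 of p10, 3 without d1 of p7 and 4 without r1 of p7. Of the 11 clones, 10 stayed called with all 35 arrays and 3 with the series block. Most of the 21 clones called with the series block were thus not among these 11. In 569 comparisons of the 30 named clones 386 kept their side of the threshold, 101 lost it, 81 gained it and 1 changed sign, that of Pde1a, which was 0.14 in the MOSE channel alone. Of 340 list medians under alternatives 24 changed sign, for example that of junctions, which was 0.03 and ran from -0.04 to 0.13. The causes were not tested. The number of arrays and the single RNA preparation per passage limit precision, and both channels were above background for 99.2% to 99.5% of clones.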

Other observations

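The 2 clones past 0.01 without a symbol had lower ratios at p10, and neither can be tied to a gene here. Clone C0111E01 read 0.77, 0.50, 0.32 and 0.30 at p10, against 2.92, 3.12 and 1.98 at p7, with -1.14 in the MOSE channel and 0.96 in the reference channel. Clone H3110D07 read -5.78, -5.47, 0.44 and 0.08 at p10, against 0.91, 0.13 and 4.65 at p7, and these arrays overlapped until the dye means were removed. Its difference of -5.45 held -1.51 in the MOSE channel and 3.94 in the reference channel. Its spot was marked as poor on 6 of the 7 arrays, its MOSE signal was at background on 2, and it differed by -6.13 between the repeat arrays of p25. Among the genes outside the named clones, Cyba, which encodes a subunit of the NADPH oxidase, differed by 1.21, Itm2a, a membrane protein gene, by 1.67 and Bex4 by 0.93. Rbm3, a gene of a cold-inducible RNA-binding protein, differed by -0.72, Ier3, an immediate early gene, by -0.67 and Grk5, a receptor kinase gene, by -1.95, of which -0.34 stood in the MOSE channel and 1.60 in the reference channel.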
